A study of Homo sapiens with 14 samples.

Results

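MICAL2, SYTL5 and SCN9A are 3 of the 59050 gene symbols in the count table of a study of pancreatic differentiation, and they were selected by their measured values, because their RNA and their ribosome footprints moved apart between stages. Their levels and changes are therefore given as a description, with no test. All 3 passed the low-count filter in each assay, which had to follow from the stages at which they were high. The cells were the human embryonic stem cell line HUES8, wild type, an established line, taken to definitive endoderm (DE), then to pancreatic progenitors of an early (PP1) and a late (PP2) stage. RNA sequencing of total RNA depleted of ribosomal RNA (RNA) and ribosome profiling, which sequences the RNA fragments covered by ribosomes (Ribo), were each run on 2 DE, 2 PP1 and 3 PP2 libraries, 14 in all. Every group shared the line and the genotype, the labels name neither a differentiation agent nor a cell sort, and undifferentiated cells were not analysed here. The study asked how RNA abundance and ribosome occupancy compare along the path to pancreatic progenitors.

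MICAL2 encodes a flavin-dependent monooxygenase that oxidises actin and so takes filaments apart, which in the nucleus raises transcription by the actin-sensing coactivators MRTFA and MRTFB with SRF. SYTL5 encodes a synaptotagmin-like protein that binds the small GTPase RAB27A and tethers secretory vesicles to membranes through its C2 domains. SCN9A encodes the pore-forming alpha subunit of a voltage-gated sodium channel best known from pain-sensing neurons and also present in islet endocrine cells of mice. In ribosome profiling, a gene whose footprints follow its RNA keeps a stable ratio of Ribo to RNA, and translation efficiency (TE) here means that ratio, or between stages how far the log2 change in Ribo exceeds that in RNA.

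Depth was 15107847 to 21009065 counts per library in RNA and 4710335 to 24186949 in Ribo. Levels below are CPM, counts scaled to a common library size, over library sizes scaled by the trimmed mean of M-values (TMM). In the Ribo libraries the mitochondrial large ribosomal RNA MT-RNR2 took 49.2% to 60.8% of counts at DE and PP1 and 44.6% in PP2 replicate 2, but 1.65% in PP2 replicate 1. Protein-coding genes held 91.5% of Ribo counts in PP2 replicate 1 and 77.5% in PP2 replicate 3, against 27.1% to 42.6% in the other Ribo libraries. The PP2 Ribo libraries thus differed widely among themselves: the chi-square per degree of freedom between their counts was 766 for replicates 1 and 2, 248 for 2 and 3, and 232 for 1 and 3, and no pair was alike. In RNA, PP2 replicate 3 differed from replicates 1 and 2 by 120 and 130, against 3.24 between those. Results are given also without RNA PP2 replicate 3 and Ribo PP2 replicates 1 and 3, the 3 libraries set aside, where this touches a value, which leaves 1 Ribo library at PP2. The stage labels were checked against markers. The endoderm genes SOX17, EOMES and CER1 averaged 469, 503 and 4456 CPM in DE RNA, and the pancreatic regulator PDX1 had 0 counts there, in Ribo as in RNA. For 4 late pancreatic progenitor markers the RNA sum was 1.13 to 1.72 CPM at DE, 193 to 212 at PP1 and 229 to 887 at PP2. For 4 early ones it was 93.1 to 95.6, 394 to 413 and 181 to 865, so PP1 and PP2 overlapped there. The summed RNA of 6 neuronal markers was 11.6 to 12.5 CPM at DE, 8.83 to 9.13 at PP1 and 7.48 to 10.7 at PP2. These markers did not move together. PRPH had 3 RNA counts at DE and 0 at PP1 and PP2. SNAP25 RNA averaged 0.942 CPM at DE, 1.35 at PP1 and 5.13 at PP2, and STMN2 RNA 6.29, 6.62 and 1.73. The summed RNA of 6 mesenchyme and smooth muscle markers was 89.2 to 111 CPM at DE, 349 to 402 at PP1 and 164 to 350 at PP2, with COL3A1 and ACTA2 at 0 in DE. The summed RNA of 4 hepatic markers was 13.8 to 14.5 CPM at DE, 7820 to 8380 at PP1 and 1660 to 4420 at PP2, with AFP and TTR at 0 in DE. The hepatic and mesenchymal RNA sums were higher at PP1 than at DE, as was the RNA of all 3 members. Within the mesenchymal list, COL1A1, COL3A1 and ACTA2 averaged more RNA at PP1 than at DE, and COL1A2, TWIST1 and PDGFRB less. COL1A1 averaged 48.0 CPM at DE and 245 at PP1. The hepatic RNA sum was lower at PP2 than at PP1, as was the RNA of MICAL2 and SYTL5 but not that of SCN9A. The mesenchymal RNA sums of PP1 and PP2 overlapped. COL3A1 and PDGFRB averaged more RNA at PP2 than at PP1, and the other markers of that list less. In Ribo the mesenchymal sum was 249 to 251 CPM at PP1 and 163 to 699 at PP2. The part of hepatic and mesenchymal cells in the results was not tested. In bulk libraries, fewer cells of a type and less RNA per cell cannot be told apart.

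The members' RNA rose together, so 1 promoter window of each is shown, from 250 bases before to 50 after an annotated start, with the RefSeq sequence of build GRCh38.p14 read along the gene's own strand. These windows lie at chr11:12161829-12162128 on the plus strand (MICAL2, the later of 2 starts in the table), chrX:38033284-38033583 on the plus strand (SYTL5, the later of 2 starts) and chr2:166375895-166376194 on the minus strand (SCN9A). Both starts of MICAL2 and of SYTL5 lie inside the gene, downstream of its outermost 5' end at chr11:12110590 and chrX:37888915. No window at those 5' ends was available. Capitals mark letters that match a searched motif on either strand.
MICAL2: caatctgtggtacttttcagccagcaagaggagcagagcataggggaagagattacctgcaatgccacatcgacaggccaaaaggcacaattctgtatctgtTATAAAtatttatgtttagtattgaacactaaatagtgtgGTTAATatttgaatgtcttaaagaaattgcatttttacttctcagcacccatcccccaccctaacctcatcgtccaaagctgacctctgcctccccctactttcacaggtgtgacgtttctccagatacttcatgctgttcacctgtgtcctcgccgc
SYTL5: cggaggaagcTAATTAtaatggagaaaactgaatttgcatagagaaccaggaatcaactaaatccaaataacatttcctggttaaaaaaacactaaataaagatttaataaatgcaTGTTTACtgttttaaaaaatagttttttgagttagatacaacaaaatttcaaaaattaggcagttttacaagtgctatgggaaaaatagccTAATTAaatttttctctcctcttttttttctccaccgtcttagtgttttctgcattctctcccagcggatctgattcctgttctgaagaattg
SCN9A: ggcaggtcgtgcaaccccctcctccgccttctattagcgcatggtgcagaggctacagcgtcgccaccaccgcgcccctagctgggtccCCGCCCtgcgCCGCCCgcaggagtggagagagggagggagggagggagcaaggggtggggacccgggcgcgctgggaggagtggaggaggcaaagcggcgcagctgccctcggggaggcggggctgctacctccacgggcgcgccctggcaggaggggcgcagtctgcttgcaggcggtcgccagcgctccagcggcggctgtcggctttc
The motifs searched were TGTTTAC for FOXA factors, AGATAA for GATA factors, TTTATNG for CDX factors, GTTAAT as a partial HNF1 site, TAATTA as a homeodomain core, TATAAA as the TATA box and GGGCGG as the GC box, and no match found overlapped another. The MICAL2 window held 1 TATAAA match, found in 11.5% of all 35116 promoter windows of the table, and 1 partial HNF1 site, found in 6.9%. The TATAAA match lay nearer to the beginning of the window than to the annotated start. The SYTL5 window held 1 FOXA match, found in 3.4% of all windows, and 2 homeodomain cores, found in 4.8%. The SCN9A window held 2 GC boxes, on the strand opposite to the gene and found in 45.0% of all windows, and 28 CG pairs against a median of 14 over all windows. The base composition differed among the members, with 73.3% G and C for SCN9A, 44.0% for MICAL2 and 31.0% for SYTL5, against a median of 58.7%. The other MICAL2 start, at chr11:12138140-12138439, held none of the motifs, and the other SYTL5 start, at chrX:38006303-38006602, held 1 GATA match. For MICAL2 and SYTL5 the start with more matches was the one shown. A match describes letters and is not a bound site, and counts per gene do not show which start was used.

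MICAL2 (chr11:12110590-12362140) had footprints at DE that its RNA did not match, and its footprints at PP1 stayed at that level while its RNA was far higher. Its Ribo level was 30.4 and 38.8 CPM at DE, 29.5 and 39.9 CPM at PP1, and 12.65, 18.05 and 18.06 CPM at PP2. Its RNA level was 1.90 and 1.79 CPM at DE, 115 and 145 CPM at PP1, and 50.3, 66.8 and 37.8 CPM at PP2. In Ribo the DE and PP1 libraries overlapped and all PP2 libraries lay below them, whereas in RNA the 3 stages did not overlap, with DE lowest and PP1 highest. These levels rested on 248 Ribo counts at PP1 and 387 at DE, and on 4479 RNA counts at PP1 and 59 at DE. Over TMM-scaled library sizes, the Ribo rate at PP1 was 0.999 times that at DE (95% exact counting interval 0.848 to 1.175). The RNA rate was 71.6 times that at DE (55.4 to 94.2). The TMM factors of the Ribo libraries were 0.677 and 0.734 at PP1 and 0.927 and 0.910 at DE, so the Ribo ratio depends on this scaling. The fitted Ribo change, PP1 against DE, was 0.00 ± 0.37 log2 units (± is the standard error of the fit) and the RNA change 6.14 ± 0.35, so that the TE change was -6.13 ± 0.50. Without any 1 of the 14 libraries the TE change lay between -6.34 and -5.90. From PP1 onward the gene's assays moved together: PP2 against PP1, Ribo changed by -1.10 ± 0.33, RNA by -1.34 ± 0.25 and TE by 0.24 ± 0.42. Counting intervals here and below cover the sampling of reads only.

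SYTL5 (chrX:37888915-38128820) was higher at PP1 than at DE in both assays, but by very different amounts. Its Ribo level was 10.2 and 7.58 CPM at DE, 74.0 and 82.1 CPM at PP1, and 23.4, 36.0 and 36.3 CPM at PP2. Its RNA level was 0.948 and 0.464 CPM at DE, 212.5 and 220 CPM at PP1, and 80.3, 94.9 and 173 CPM at PP2. In each assay the stages did not overlap, with DE lowest and PP1 highest. Ribo rested on 560 counts at PP1 and 100 at DE, and RNA on 7344 counts at PP1 and 23 at DE. The Ribo rate at PP1 was 8.73 times that at DE (95% exact counting interval 7.05 to 10.9), and the RNA rate 301 times (200.5 to 475). The fitted changes, PP1 against DE, were 3.13 ± 0.40 log2 units in Ribo, 8.23 ± 0.54 in RNA and -5.10 ± 0.61 in TE, and the TE change lay between -5.71 and -4.68 without any 1 library. The highest of the PP2 RNA values came from replicate 3, the RNA library that differed most from its group. PP2 against PP1, Ribo changed by -1.29 ± 0.32, RNA by -0.90 ± 0.34 and TE by -0.40 ± 0.48. Without the 3 libraries set aside this last TE change, then from 1 PP2 Ribo library, was 0.18.

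SCN9A (chr2:166195185-166375987) was the latest of the 3, with its highest level at PP2 in both assays. Its Ribo level was 0 and 1.44 CPM at DE, 9.11 and 3.76 CPM at PP1, and 25.7, 15.7 and 26.8 CPM at PP2. Its RNA level was 0 and 0.0663 CPM at DE, 27.8 and 30.9 CPM at PP1, and 79.7, 77.4 and 112 CPM at PP2. The stages did not overlap in either assay, and they stood in the order DE, PP1, PP2. At DE the gene had 8 Ribo counts, all in replicate 2, and 1 RNA count. The Ribo count of 0 in DE replicate 1 allows up to 0.530 CPM, and the RNA count of 0 in DE replicate 1 up to 0.178 CPM, taking 3 counts as the limit. The Ribo rate at PP1, from 47 counts, was 9.16 times that at DE (95% exact counting interval 4.29 to 22.4), and the RNA rate, from 1002 counts, was 945 times (169 to 37360). The fitted TE change, PP1 against DE, was -6.36 ± 1.46 log2 units, and it rested on 1 library: without Ribo DE replicate 2 it was 0.09, and without RNA DE replicate 2 it was -8.59. Whether SCN9A footprints and RNA moved apart between DE and PP1 was therefore not settled at this depth. PP2 against PP1, Ribo changed by 1.82 ± 0.69, RNA by 1.61 ± 0.26 and TE by 0.21 ± 0.68, and the last was 1.06 without Ribo PP1 replicate 1 and -0.15 without the 3 libraries set aside.

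**Figure D1:**
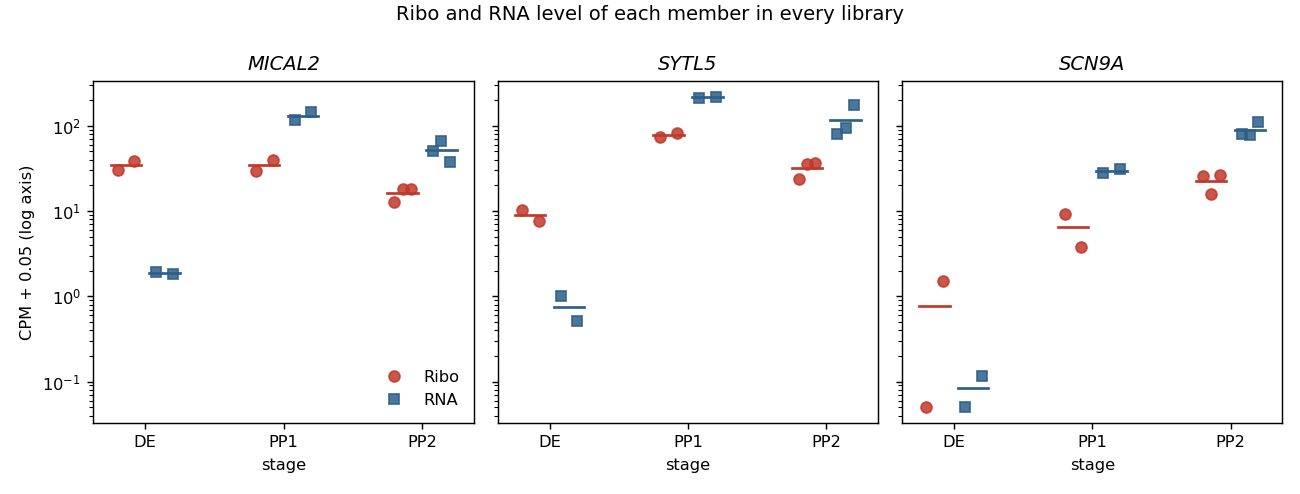
Level of MICAL2, SYTL5 and SCN9A in every library at DE, PP1 and PP2, as CPM plus 0.05 on a log axis (circles Ribo, squares RNA, short lines the group means; a library at 0 sits at 0.05). MICAL2 Ribo is as high at DE (30.4 and 38.8 CPM) as at PP1 (29.5 and 39.9 CPM), while its RNA is 1.90 and 1.79 CPM at DE and 115 and 145 CPM at PP1.

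The order of the members was the same in both assays and depended on the stage once levels were set per length of the counted gene model, which is 20191 bases for MICAL2, 4820 for SYTL5 and 13946 for SCN9A. At DE the mean Ribo level was 1.85 CPM per kilobase for SYTL5, 1.71 for MICAL2 and 0.0517 for SCN9A, and the mean RNA level was 0.146, 0.0913 and 0.00238 in the same order. At PP1 the Ribo level was 16.2 CPM per kilobase for SYTL5, 1.72 for MICAL2 and 0.461 for SCN9A, and the RNA level was 44.9, 6.45 and 2.10. At PP2 SCN9A and MICAL2 had changed places, with Ribo levels of 6.61 CPM per kilobase for SYTL5, 1.63 for SCN9A and 0.805 for MICAL2, and RNA levels of 24.1, 6.43 and 2.56. The libraries of neighbours in this order overlapped in 1 case, DE Ribo, where SYTL5 had 1.57 and 2.12 CPM per kilobase and the higher MICAL2 library had 1.92.

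The ratio of Ribo to RNA shows where the separation lies. Taking each Ribo library's CPM over the mean RNA CPM of its stage, the MICAL2 ratio was 16.5 and 21.0 at DE, 0.227 and 0.307 at PP1, and 0.245, 0.350 and 0.350 at PP2. The SYTL5 ratio was 14.5 and 10.7 at DE, 0.342 and 0.380 at PP1, and 0.202, 0.310 and 0.312 at PP2. The SCN9A ratio was 0.310 and 0.128 at PP1 and 0.286, 0.175 and 0.299 at PP2, and with 1 RNA count at DE no ratio is given there. For MICAL2 and SYTL5 every DE library thus lay more than 10-fold above every later one, and the PP1 and PP2 libraries overlapped for MICAL2, whereas for SYTL5 PP2 lay just below PP1. Among the 14152 genes tested in both assays, the log2 ratio (0.5 CPM added to each mean) put MICAL2 at percentile 99.4 and SYTL5 at 98.8 at DE. At PP1 the percentiles were 21.5 for MICAL2, 35.7 for SYTL5 and 15.95 for SCN9A, and at PP2 they were 24.9, 19.5 and 16.8 in the same order. The unusual stage for MICAL2 and SYTL5 was DE, where footprints were many for the RNA, and at PP1 and PP2 all 3 genes had ratios below the median of all genes and inside the band that holds 90% of them.

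**Figure D2:**
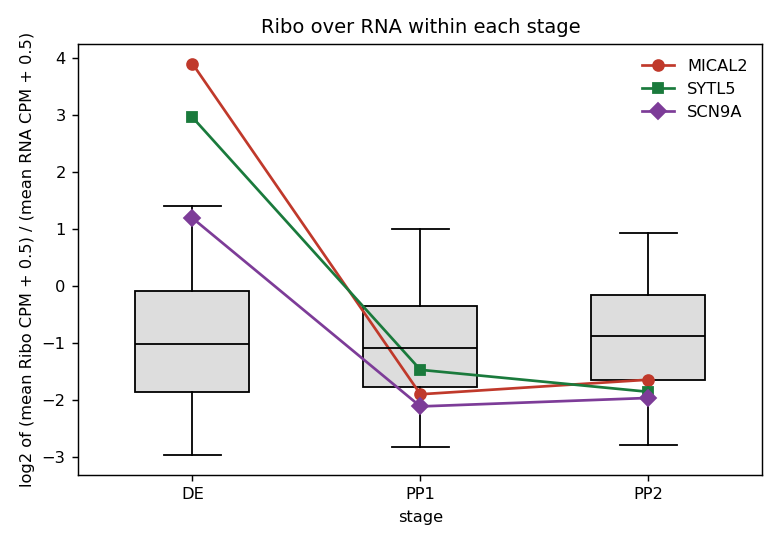
Log2 ratio of mean Ribo CPM to mean RNA CPM (0.5 added to each) at DE, PP1 and PP2 for MICAL2, SYTL5 and SCN9A, over boxes for all 14152 genes tested in both assays (box the quartiles, line the median, whiskers percentiles 5 and 95). MICAL2 and SYTL5 lie above the upper whisker at DE, at 3.90 and 2.96, and all members lie below the median at PP1 and PP2; the SCN9A point at DE rests on 8 Ribo counts and 1 RNA count.

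Set against genes of like RNA level, MICAL2 and SYTL5 stood high at DE. This is another description of the DE values behind the ratio and the choice of members, and it carries no test. At DE, 1804 protein-coding genes had RNA counts within 2-fold of the 59 of MICAL2, and their median Ribo count was 13, against the 387 of MICAL2. Of these genes 9 had as many Ribo counts or more. At DE the 100 Ribo counts of SYTL5 stood against a median of 6.5 in 1526 genes of like RNA count, 20 of which had as many or more. At PP1 the members fell at percentiles 43.7 (MICAL2), 68.6 (SYTL5, above the median here) and 17.8 (SCN9A) of such genes, and at PP2 at 26.8, 28.4 and 31.2. Ribo counts without RNA were not particular to these genes. Of 2792 protein-coding genes with at most 1 RNA count over the DE libraries, 374 (13.4%) had 8 or more Ribo counts, as many as SCN9A, and 9 had at least the count of MICAL2. Among those 2792, 48 had gene models of at least 10000 bases, and 35 of these (72.9%) had 8 or more Ribo counts. At the same count cuts, the shares of all such silent genes were 5.92% at PP1 and 4.54% at PP2. Depth differed between stages, as did the number of libraries at PP2, so equal counts do not stand for equal levels. MICAL2 and SCN9A have models of over 10000 bases and SYTL5 does not. Whether DE footprints on MICAL2, SYTL5 and SCN9A share a source with those on silent genes was not tested, and the table holds 1 count per gene, so the place of footprints along a transcript was not analysed here.

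**Figure D3:**
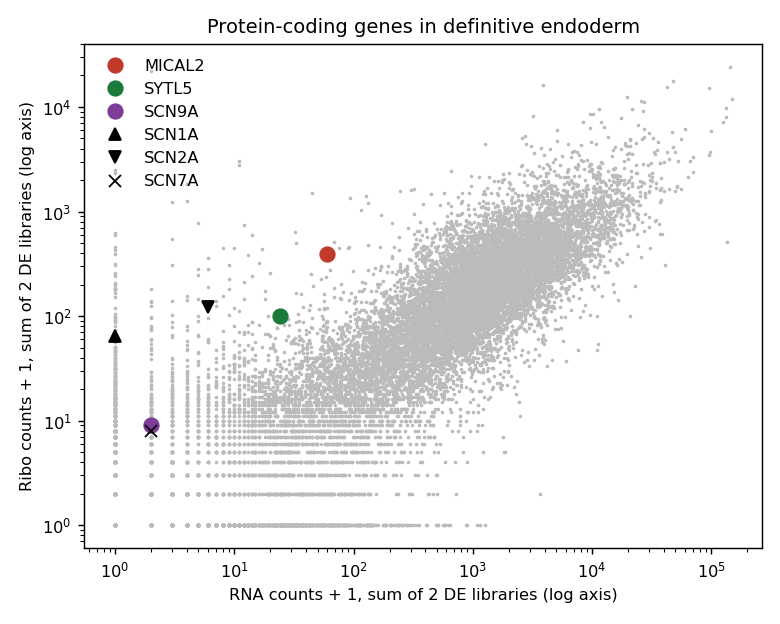
Ribo counts against RNA counts of every protein-coding gene at DE, each summed over 2 libraries with 1 added, on log axes; MICAL2, SYTL5 and SCN9A are filled circles, and the sodium channel genes SCN1A, SCN2A and SCN7A are black symbols. MICAL2 (387 Ribo and 59 RNA counts) and SYTL5 (100 and 23) lie at the top of the genes with as little RNA, and SCN1A has 63 Ribo counts with 0 RNA counts.

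The members were next set among the genes with a large fitted RNA change, PP1 against DE. Of the 9042 genes with a mean of at least 10 CPM at some stage in each assay, 282 had an RNA change, PP1 against DE, of at least 3 log2 units. Their median change was 3.97 in Ribo, 4.62 in RNA and -0.90 in TE, and 44 of them had a TE change of -3 or lower. Ranked from the lowest TE change, SCN9A was number 9, MICAL2 number 11 and SYTL5 number 19. The 10 lowest included FABP1 (a fatty acid binding protein of liver and gut), the gut regulator CDX2, the pancreatic regulator NKX6-1, the fibrillar collagen COL3A1, the gut regulator ISX, AC019117.1, the liver protease inhibitor SERPINA1, SCN9A and its neighbour SCN7A. FABP1 had a TE change of -9.56 and CDX2 of -8.00, with Ribo changes of 0.68 and 1.49. Over the DE libraries FABP1 had 179 Ribo counts and 0 RNA counts, CDX2 65 and 4, and NKX6-1 34 and 0, so the fitted sizes depend on the prior count where RNA was at 0. NKX6-1 had 15 RNA counts and 7 Ribo counts at PP1 and reached 10 CPM at PP2 alone, so its TE change rests on few counts at both stages. This ranking used the comparison that chose the members, so their place in it is a description.

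**Figure D4:**
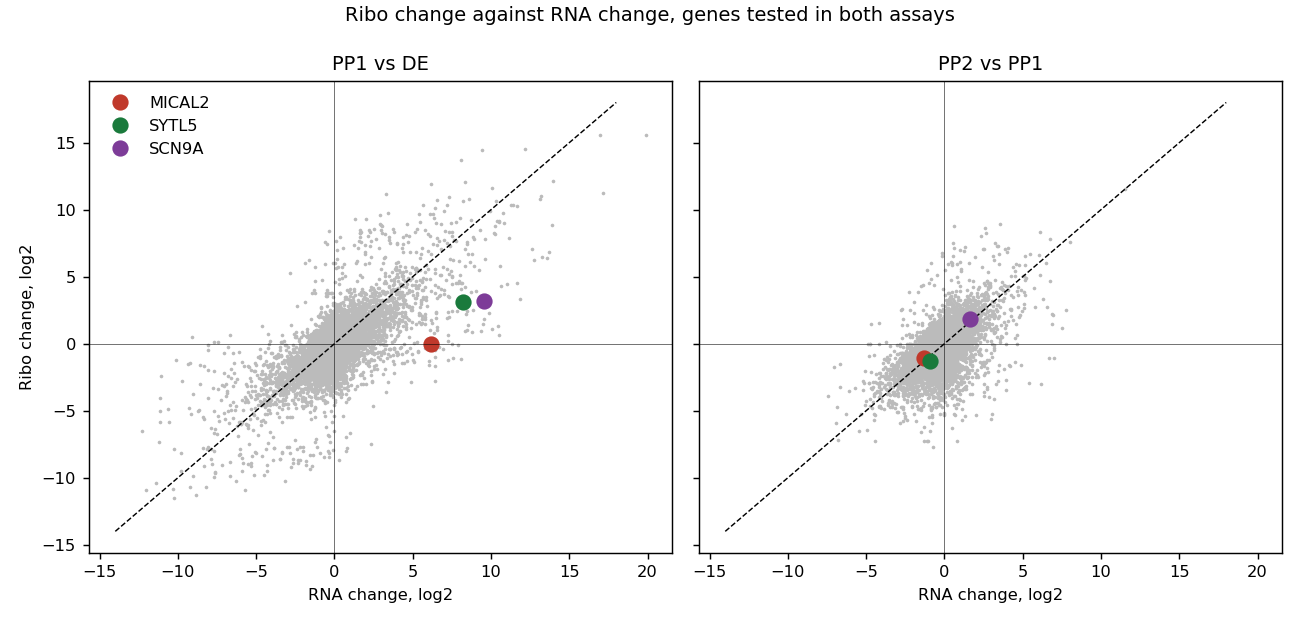
Fitted Ribo change against fitted RNA change in log2 units for the 14152 genes tested in both assays, PP1 against DE on the left and PP2 against PP1 on the right; the dashed line marks equal change. MICAL2 (0.00 in Ribo, 6.14 in RNA), SYTL5 (3.13 and 8.23) and SCN9A (3.15 and 9.58) lie below the line on the left, SCN9A with 1 RNA count at DE, and all 3 lie close to it on the right.

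The likest genes were found by Pearson correlation of log2(CPM + 1), centred within each assay, over the 14 libraries and among 1860 genes whose RNA stage means spanned at least 2 log2 units. Libraries of a stage share their stage, so these values describe a stage pattern and carry no test. The correlation spans both assays, so the TE changes of the likest genes follow in part from how they were picked. For MICAL2 they were VSIG2 (0.932), SULT1C2 (0.929), NCR3LG1 (0.928), CSRP1 (0.925) and MASP1 (0.923), and all 5 had a TE change, PP1 against DE, of -3.96 or lower. For SYTL5 they were ID2 (0.980), MEF2C (0.978), THRB (0.9745), ONECUT2 (0.971) and FRMD4B (0.970), with TE changes between -4.11 and -1.45. For SCN9A they were MBNL1 (0.987), B3GALT1 (0.985), GRHL2 (0.981), EPHA6 (0.979) and LYPD6B (0.978), with TE changes between -2.16 and 4.68. The genes likest to SCN9A thus had TE changes on both sides of 0. With 0.25 CPM in place of 1, 4 of the 5 genes stayed among the 5 likest for MICAL2, 3 for SYTL5 and 3 for SCN9A. Among the members, the correlation was 0.874 between MICAL2 and SYTL5, 0.831 between SYTL5 and SCN9A, and 0.613 between MICAL2 and SCN9A.

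Relatives and partners of the members were tested with edgeR's quasi-likelihood test, with Benjamini-Hochberg adjustment over all genes, a gene passing where its adjusted p was below 0.05. Of 62 listed genes 61 had a row, MICALCL having none. PP1 against DE, 14 rose and 8 fell in RNA of 57 tested, beside 24.3% called over all genes. In Ribo 3 rose (MICAL1, NEDD4 and NEDD4L) and none fell of 53, beside 7.54% over all genes, and 0 of 53 passed without any 1 of the DE or PP1 Ribo libraries. In TE 0 of 52 passed, beside 0.290% over all genes, with 7 at an unadjusted p under 0.05 and 1 (SCN7A) by DESeq2. At that background share a count of 0 among 52 is no result about the relatives. The median TE change of these 52 genes was 0.02 log2 units and that of all genes -0.04. Without the 3 libraries set aside the TE count was 7 of the listed genes, and 1291 over all genes in place of 41. PP2 against PP1, 3 rose and 13 fell in RNA of 57 (18.4% over all genes), none rose and 2 fell in Ribo of 53 (5.01%), and 0 of 52 passed in TE (0.0777%), with 6 at an unadjusted p under 0.05 and 1 by DESeq2. Without Ribo PP2 replicate 2 the TE count was 6 listed genes, with 1284 over all genes in place of 11, and the Ribo count was 13, with 3473 over all genes in place of 755. The RNA counts of listed genes lay between 10 and 36 for PP1 against DE and between 6 and 35 for PP2 against PP1 when 1 library was left out, lowest in each without RNA PP1 replicate 1 and highest without RNA PP2 replicate 3, as the counts over all genes also shifted.

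In the MICAL family and its binding partners, 2 of 6 genes rose in RNA and 1 in Ribo, PP1 against DE. The shares called over all genes were 24.3% in RNA and 7.54% in Ribo, so these small counts are no result about the family. MICAL1, another enzyme of the family, averaged 84.1 CPM at PP1 and 26.7 CPM at DE in Ribo, and 123 CPM at PP1 and 44.6 CPM at DE in RNA. Its Ribo change was 1.66 ± 0.37 log2 units (edgeR adjusted p = 0.0207) and its RNA change 1.46 ± 0.19 (edgeR adjusted p = 9.57e-04), and its TE change was 0.20 ± 0.39. The MICAL1 Ribo call was lost without either DE or either PP1 Ribo library (edgeR adjusted p up to 0.180). MICAL3 did not pass in either assay, with changes of 0.17 ± 0.40 in Ribo and 0.17 ± 0.48 in RNA. Of 16 actin and SRF partners, which include MRTFA, MRTFB, SRF and their target genes, 1 rose and 3 fell in RNA. This count is near the share of 24.3% called over all genes. None of the 16 passed in Ribo by edgeR (7.54% over all genes) or by DESeq2, with 1 at an unadjusted p under 0.05. The one that rose was ACTA2, smooth muscle actin, with 84 RNA counts at PP1 and 0 at DE, at least 26.4-fold higher at PP1 (3 counts over the DE libraries as the limit). ACTA2 also had Ribo counts without RNA at DE, 19 and 3 in the 2 libraries, and its TE change did not pass.

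In the SYTL family, 3 of the 4 other members rose in RNA, PP1 against DE, beside 24.3% called over all genes. In Ribo 0 of 3 tested passed by edgeR (7.54% over all genes) or by DESeq2, with 0 at an unadjusted p under 0.05. SYTL2, another RAB27 effector, averaged 7.32 ± 0.381 CPM at PP1 and 1.44 ± 0.726 CPM at DE in RNA (SD, n = 2 each), a change of 2.33 ± 0.36 log2 units (edgeR adjusted p = 2.22e-03). SYTL4, known as granuphilin and found on insulin granules, averaged 2.24 ± 0.066 CPM at PP1 and 0.162 ± 0.146 CPM at DE in RNA, a change of 3.77 ± 0.57 (edgeR adjusted p = 1.98e-03). SYTL2 and SYTL4 had TE changes of -1.48 ± 0.90 and -1.36 ± 1.42, and SYTL1, which also rose in RNA, one of 0.35 ± 0.79. None of these passed. The RNA of SYTL2 and SYTL4 at PP1 was below that of SYTL5, which had 216 ± 5.21 CPM there. Of the small GTPases that SYTL proteins bind, RAB27B averaged 12.0 ± 3.18 CPM at PP1 and 1.47 ± 0.073 CPM at DE in RNA, and rose by 3.02 ± 0.49 (edgeR adjusted p = 2.95e-03). RAB27A RNA did not pass, at 9.30 ± 0.279 CPM at PP1 and 8.36 ± 0.660 CPM at DE. RAB27A Ribo was 4.56 and 4.34 CPM at PP1, from 32 counts, and 0.883 and 0.721 CPM at DE, from 9 counts. This Ribo change of 2.45 ± 0.70 just missed the threshold (edgeR adjusted p = 0.0567) and passed by DESeq2, and the TE change was 2.31 ± 0.69 (edgeR adjusted p = 0.226, unadjusted 0.00426), opposite in sign to that of SYTL5. RPH3AL, a listed RAB27 effector, also had many footprints for its RNA at DE. It averaged 143.7 CPM in Ribo and 9.43 CPM in RNA at DE, and 88.8 and 22.1 CPM at PP1. Its TE change of -1.92 ± 0.81 did not pass (edgeR adjusted p = 0.447, unadjusted 0.0316). PP2 against PP1, SYTL1 RNA fell by 2.26 ± 0.23 (edgeR adjusted p = 7.23e-04), and so did the RAB27 effector MYRIP, by 2.82 ± 0.25 (edgeR adjusted p = 4.31e-04).

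Among the sodium channel alpha subunits other than SCN9A, SCN1A and SCN2A showed footprints with little or no RNA at DE most plainly. SCN8A instead had less Ribo than RNA there, with means of 14.1 and 36.9 CPM. SCN4A was near even, at 3.59 CPM in Ribo and 3.78 in RNA, and so was SCN11A, at 2.51 and 2.23. SCN1A, the neighbour of SCN9A towards lower coordinates, had 24 and 39 Ribo counts at DE and 10 and 8 at PP1, with 0 RNA counts in each of these stages' libraries. A count of 0 allows up to 0.205 CPM in the shallowest of these RNA libraries. SCN2A had 47 and 75 Ribo counts at DE with 2 and 3 RNA counts, and 26 and 9 Ribo counts at PP1 with 14 and 18 RNA counts. SCN1A and SCN2A Ribo levels did not pass the test between PP1 and DE, at -1.17 ± 1.28 and -1.18 ± 0.81 log2 units. SCN7A, the neighbour on the other side, which encodes a sodium-sensing channel, had 997 and 988 RNA counts at PP1 and 0 and 1 at DE. Its RNA rose (edgeR adjusted p = 1.52e-05), with a rate at PP1 1872 times that at DE (95% exact counting interval 336 to 73970). SCN7A Ribo had 74 and 20 counts at PP1 and 0 and 7 at DE, which is the pattern of SCN9A in the same DE libraries, and its TE change of -6.21 ± 1.92 did not pass (edgeR adjusted p = 0.252). PP2 against PP1 the 2 neighbours differed: SCN7A RNA fell by 2.22 ± 0.24 (edgeR adjusted p = 9.71e-04), where SCN9A RNA changed by 1.61 ± 0.26. SCN8A, at 38.3 ± 3.65 CPM at PP1 and 36.9 ± 5.46 CPM at DE in RNA, did not pass in RNA, Ribo or TE. The beta subunit SCN3B rose in RNA at PP2 against PP1, with 7.58 ± 1.13 CPM at PP2 (SD, n = 3) and 1.94 ± 0.125 CPM at PP1 (SD, n = 2), by 1.96 ± 0.26 (edgeR adjusted p = 2.04e-03). Of the channel's partners, the ubiquitin ligase NEDD4L, which takes sodium channels off the membrane, rose in RNA by 1.92 ± 0.25 (edgeR adjusted p = 8.77e-04), PP1 against DE, and FGF12 RNA, for a factor that binds channel tails, fell by 1.90 ± 0.20 (edgeR adjusted p = 3.09e-04).

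**Figure D5:**
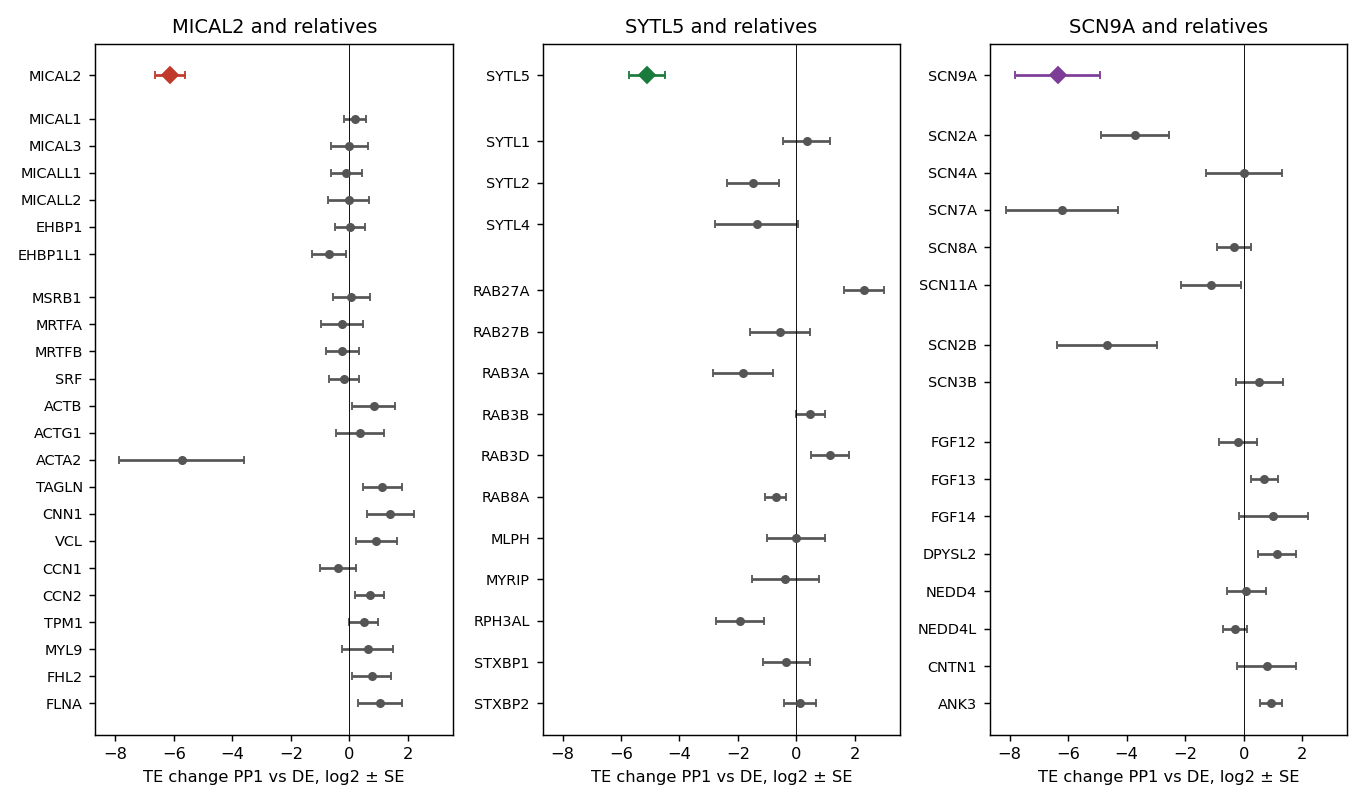
TE change, PP1 against DE, in log2 units with the standard error of the fit, for each member (diamond) and most of its listed relatives and partners (circles). None of the 52 relatives passed the edgeR test; the lowest of them, SCN7A, ACTA2, SCN2B and SCN2A, have few RNA counts at DE, as SCN9A has.

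Genes that overlap a member or lie next to it were taken from the RefSeq annotation of GRCh38.p14. Of 10 such genes with a row, 5 rose and 1 fell in RNA of 7 tested, PP1 against DE, beside 24.3% called over all genes. In Ribo 0 of 6 passed, beside 7.54% over all genes, with 5 at an unadjusted p under 0.05 and 1 (SCN7A) by DESeq2. SCN1A-AS1, an antisense RNA that overlaps SCN9A, had 52 and 110 RNA counts at PP1 and 0 and 1 at DE, and its RNA passed (edgeR adjusted p = 1.82e-04). The strand setting of the counting is not given in the sources used here, so reads of SCN9A and of SCN1A-AS1 cannot be told apart with certainty. HYPM, inside SYTL5 and named H2AP in RefSeq, had 83 RNA counts at PP1 and 0 at DE, at least 26.1-fold higher at PP1. Both genes beside SYTL5 rose in RNA: DYNLT3, a dynein light chain, by 2.55 ± 0.41 log2 units (edgeR adjusted p = 2.92e-03), and SRPX by 2.79 ± 0.49 (edgeR adjusted p = 4.21e-03). The genes beside MICAL2 did not follow it, with PARVA RNA at 0.61 ± 0.37, which did not pass, and DKK3 RNA falling by 0.80 ± 0.19 (edgeR adjusted p = 0.0155), a call lost without any 1 DE or PP1 RNA library (edgeR adjusted p up to 0.149). DKK3, unlike MICAL2, had Ribo levels below its RNA levels at DE, at 43.1 and 41.3 CPM in Ribo and 83.7 and 85.9 CPM in RNA. The microRNA genes inside the members, MIR6124 in MICAL2 and MIR548AJ2 in SYTL5, had 0 counts in every Ribo library.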

How the data were processed

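RNA sequencing and ribosome profiling of HUES8 cells were analysed from 1 table of raw read counts per gene symbol and library, which the authors deposited with a gene length column. Per the submitters' processing notes, cutadapt 1.18, Bowtie 1.2, STAR 2.7.1a and featureCounts 1.6.4 were used with hg38. Which step each aligner served, how strand was set, the gene annotation used and the features (coding or exonic) that footprints were assigned to are not given in the sources used here. No sample was left out, and whether replicates came from separate differentiations is not stated, so p-values measure only the spread between these libraries.

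Each assay was fitted over its 3 stages in edgeR 4.0.16 (R 4.3.3) with filterByExpr, TMM scaling (levels are CPM over these scaled sizes) and the quasi-likelihood F test. This tested 24603 genes in RNA and 15067 in Ribo. TE was the interaction of assay and stage in 1 fit of 14 libraries in 6 groups, over 14152 genes. P-values were Benjamini-Hochberg adjusted over all genes tested. Standard errors were taken from the fold change and its F value. The fits were also run on counts simulated with the same spread in every library. That check does not cover libraries as unlike as those of PP2. DESeq2 1.42.0 and other settings were alternatives. Named are the members, genes of lists of relatives, partners and neighbours, the 5 genes likest to each member, and the 10 lowest TE changes among genes with much higher RNA at PP1. Members and lists were chosen with earlier results of these data known. The comparisons with genes of like RNA level and with silent genes were added after the values were seen. Rate ratios have exact conditional counting intervals. Protein sequences were not used here. Some genes that this rule names are not reported here.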

Additional observations from a re-analysis of the deposited data

How the results depend on the processing

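The TE changes of MICAL2 and SYTL5, PP1 against DE, stayed between -6.14 and -6.08 and between -5.11 and -5.04 under the settings that kept every library or left out the 3 set aside, and between -6.34 and -5.90 and between -5.71 and -4.68 without any 1 library. That of SCN9A stayed between -6.70 and -6.26 under those settings but ran from -8.59 to 0.09 without 1 library. PP2 against PP1, leaving out 1 library gave 0.05 to 0.54 for MICAL2, -0.61 to 0 for SYTL5 and -0.21 to 1.06 for SCN9A. The counts over all genes depended on the setting. Without a low-count filter, TE calls were 134 (PP1 against DE) and 98 (PP2 against PP1) in place of 41 and 11, and Ribo calls PP2 against PP1 were 1772 in place of 755. With DESeq2 these counts were 202, 300 and 1617. With a replicate block, TE calls were 11 and 0, RNA calls 11713 and 9758, and Ribo calls 745 and 201. Without the 3 libraries set aside, TE calls PP1 against DE were 1291, RNA calls 11999 and 9984, and Ribo calls PP1 against DE 3005. Leaving out 1 library, calls PP1 against DE ran from 2935 to 11999 in RNA, 424 to 2228 in Ribo and 9 to 131 in TE, and PP2 against PP1 from 1210 to 9984, 58 to 3473 and 0 to 1284. The cause of these shifts was not tested. Same-numbered libraries did not deviate together throughout (correlations of deviations -0.29 to 0.23). In groups of 2 libraries the deviations mirror each other, so this check cannot decide whether the numbers pair the samples. They were treated as unpaired. Of 49 calls among relatives and neighbours none changed direction, but 23 were lost without RNA PP1 replicate 1, 18 without RNA PP1 replicate 2, 15 without RNA DE replicate 1 and 14 without RNA DE replicate 2, and up to 6 under any other setting. At DE, depth limits SCN9A most, with 8 Ribo counts and 1 RNA count.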
